A study of Blastobotrys raffinosifermentans with 8 samples.

Results

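ARAD1A15158g, an annotated oxalocrotonate decarboxylase gene, and the pair ARAD1A09218g and ARAD1C00330g, whose annotation is 2-oxopent-4-dienoate hydratase, stand for consecutive steps near the end of the tannin catabolism proposed for the yeast Blastobotrys raffinosifermentans. They were chosen by these annotations. The study reports genes annotated for these steps as upregulated with protocatechuic acid on the same arrays. The places and p-values given below are therefore no independent support for a difference. Every array probe whose name carries 1 of the 3 identifiers was taken. This gave 30 of the 56312 yeast probes on the array, 10 for each gene, on 34 of 61537 spots, and 3 of 6160 identifiers. All 3 genes passed the filter for testing, a probe well above background on 2 or more arrays, as did 6036 identifiers in all. ARAD1C00330g passed it through the arrays with protocatechuic acid alone. ARAD1C00330g also serves the study as a candidate hydroxylase of 4-hydroxybenzoate, and that candidate was picked in part for its signal on the same arrays.

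In some routes of aromatic catabolism by ring cleavage, but not in all, the opened ring is passed to oxalocrotonate, from which the decarboxylase releases carbon dioxide. The hydratase adds water to the resulting oxopentadienoate and gives 4-hydroxy-2-oxovalerate, which an aldolase splits into pyruvate and an aldehyde that enter central metabolism. The chemistry of these steps is best known from soil bacteria of the genus Pseudomonas, where decarboxylase and hydratase work as a complex. For the yeast the roles of the 3 genes rest on annotation.

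Wild-type cells of strain LS3 were grown overnight in minimal medium with glucose and nitrate and moved to fresh nitrate medium with either 1% glucose or 1% glucose and 0.5% protocatechuic acid, a dihydroxybenzoic acid that yeasts can break down. The cultures were sampled at 4 times, after 15 and 30 min, after 2 h and after 5 h, and each of the 8 combinations was hybridized to 1 one-colour array. Values listed below in time order follow this sequence. No strain carried a deletion or a transgene, and the sources used here do not say whether 1 flask gave all samples of a medium. All arrays lay on 1 slide with the media in separate rows, so a difference of medium and one of row cannot be told apart, and without replicate arrays a test can use only the spread of the 4 differences between the media.

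The share of yeast spots well above background was between 58.9% and 70.2% per array, the median spot intensity between 71.5 and 96, and the median local background between 28 and 33. The 3 arrays with the lowest shares were those of 30 min in both media and of 5 h with protocatechuic acid. The 5 bright spike-in control probes, which were added in known amounts to every sample, had median log2 differences (protocatechuic acid minus glucose) of -0.02, -0.09, -0.18 and 0.62 in time order. No spot of the 3 genes was saturated or marked as an outlier. The 4 member probes that lie on 2 spots each gave 32 pairs of spots, in which the brighter spot exceeded the dimmer by a median factor of 1.08 and by at most 1.23.

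The 3 genes differed in how often they could be seen at all. The scanner software marks spots as well above background, and a probe was counted when at least 1 of its spots carried the mark. The mark does not follow from the local background alone. On the glucose array of 15 min a spot of 63 over a local background of 28 was unmarked, and one of 63 over 30 was marked. For ARAD1A09218g 39 of the 40 values with glucose (10 probes on 4 arrays) were well above background and 40 of 40 with protocatechuic acid. For ARAD1C00330g the mark was present in 0 of 40 values with glucose and in 39 of 40 with protocatechuic acid. For ARAD1A15158g it was present in 4 of 40 and in 22 of 40 values.

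**Figure D1:**
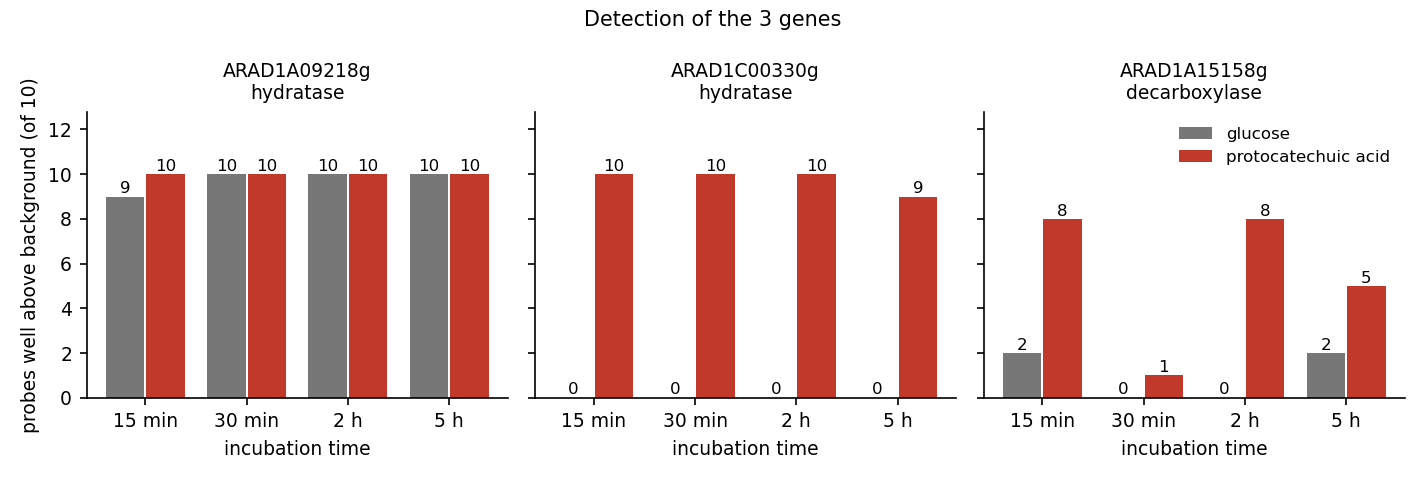
Number of probes well above background (vertical axis, of 10) for each gene on each array, by incubation time, with glucose in grey and protocatechuic acid in red. ARAD1C00330g has 0 marked probes on all 4 glucose arrays and 10, 10, 10 and 9 on the protocatechuic acid arrays.

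Among the genes tested, ARAD1C00330g was alone in having no probe well above background on any glucose array and at least 1 on each of the 4 protocatechuic acid arrays (1 of 6036 genes, 0.0166%). This pattern was looked for after it had been seen in the gene itself, so the count describes the array and is not a test.

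The hydratase gene ARAD1A09218g was measurable in both media and had higher signals with protocatechuic acid at every time. With glucose the median intensity over its 10 probes was 88, 97, 165 and 196 in time order. With protocatechuic acid it was 179 at first, 512 at 30 min, 753 at its highest after 2 h, and 426 in the last sample. Within each time every probe was brighter with protocatechuic acid than with glucose. RNA came from whole cultures, so more expressing cells and more RNA per cell cannot be told apart.

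After background correction (normexp, offset 50) and quantile normalization, the gene value, which is the median over probes on the log2 scale, was 6.56 ± 0.39 (SD over 10 probes, as below), 6.81 ± 0.33, 7.36 ± 0.46 and 7.31 ± 0.46 with glucose in time order. With protocatechuic acid the values of ARAD1A09218g were 7.37 ± 0.53, 9.24 ± 0.90, 9.21 ± 0.94 and 8.73 ± 0.80 at the same times. This SD is the spread of probes on 1 RNA sample and not an error between cultures. The gap between the lowest value with protocatechuic acid, at 15 min, and the highest with glucose, at 2 h, was only 0.01. This gap did not separate levels of ARAD1A09218g beside the residual SD of 0.39 from the limma fit. Nor did the step from 30 min to 2 h with protocatechuic acid. With glucose those from 15 to 30 min and from 2 h to 5 h did not either. That SD is of 1 value, and a difference between 2 values spreads more, so gaps just above it separate no levels.

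**Figure D2:**
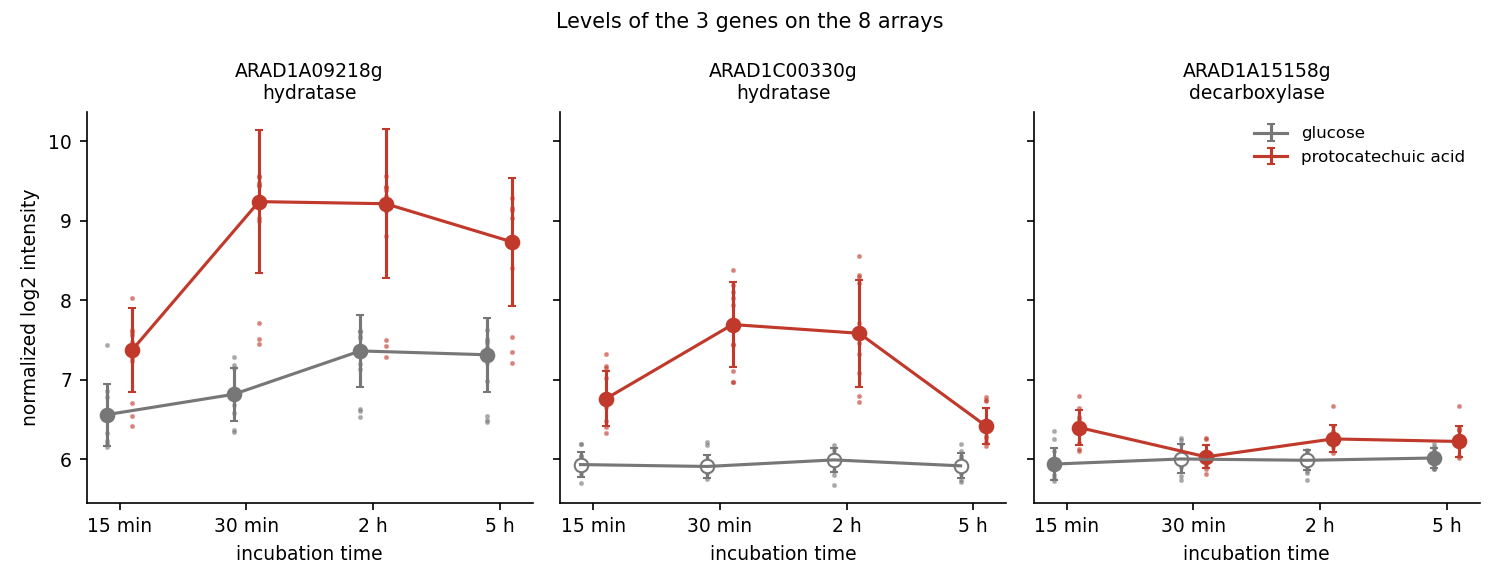
Normalized log2 intensity (vertical axis) of each gene by incubation time, with glucose in grey and protocatechuic acid in red. Large circles are the gene values with the SD over 10 probes as error bars, open where no probe was well above background, and small dots are single probes. ARAD1A09218g reaches 9.24 and ARAD1C00330g 7.69 at 30 min with protocatechuic acid.

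In the glucose medium ARAD1A09218g had a value 0.80 higher at 2 h than at 15 min, and 10 of 10 probes were higher. From 15 to 30 min 9 of the 10 probes were higher. The exception, the probe that starts at base 572 of the gene, had an intensity of 163.5 at 15 min and 112 at 30 min. With protocatechuic acid the gene value was 1.87 ± 0.43 higher at 30 min than at 15 min in 10 of 10 probes, a step that 1.09% of all genes tested exceeded, while 5.27% had one of at least 1. From 2 h to 5 h it was 0.48 ± 0.24 lower, in 9 of 10 probes.

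Where the course of ARAD1A09218g peaked depended on the scaling of the arrays. After quantile normalization 9 of 10 probes had their highest value with protocatechuic acid at 30 min, whereas with median scaling, and in the intensities as scanned, 10 of 10 had it at 2 h. The step of the gene value from 30 min to 2 h was -0.03 after quantile normalization and 0.34 after median scaling. The order of these times is therefore not fixed by the data.

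The difference between the media for ARAD1A09218g was smallest at 15 min, at 0.82, and the 4 single times had no replicate and no test. At 15 min 1 of its 10 probes had a log2 difference of at least 1, against 9, 7 and 8 at the later times. As a gene it passed this size at each of the later times, where 1.23%, 0.961% and 0.348% of the genes tested did so, and not at 15 min, where 3.51% did. The call at 15 min turned on the processing, since the value was 1.13 at an offset of 16, 1.39 without an offset and 1.66 in the processed signal. By the size of the difference ARAD1A09218g stood at place 11 at each of these later times and at place 301 at 15 min. At 5 h its difference of 1.42 exceeded the spike-in median of 0.62, which moved in the same direction; the part of that shift in the result was not tested.

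Over the 4 times the mean log2 difference of ARAD1A09218g was 1.63 (standard error 0.27), which is a 3.09-fold higher signal, and it was above 0 at 4 of 4 times. The limma test with the time as a block gave an unadjusted p of 0.00233 and, adjusted over 6036 genes, a Bonferroni p of 1 and a Benjamini-Hochberg p of 0.591. None of the genes tested passed either adjustment (0%), while 1.34% were higher at an unadjusted p under 0.05 and 4.49% were higher at all 4 times. By the size of the mean, ARAD1A09218g stood at place 8 among the genes tested. The limma test of the times gave it an unadjusted p of 0.0725 and a Benjamini-Hochberg p of 0.183, where 12.0% of the genes passed.

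The probes of ARAD1A09218g did not all show the same difference. The 3 probes nearest the gene start, which begin at bases 2, 62 and 131, had mean differences between 0.69 and 0.95, and the other 7, which begin between bases 232 and 632, between 1.47 and 1.83. At 30 min the probe at base 131 had 0.83 and the probe at base 435 had 2.69. The 2 sets stayed apart with an offset of 16 (0.97 to 1.34 against 1.67 to 2.13), without an offset (1.21 to 1.70 against 1.80 to 2.37) and in the processed signal of the scanner software (1.52 to 1.85 against 1.90 to 2.67). The 3 probes were also the dimmest of the gene, with mean log2 values of 6.76 to 6.89 against 7.61 to 8.15. Position in the gene and signal level therefore cannot be told apart here. The split into 3 and 7 probes was made after the values had been seen. In a limma fit over the 44167 probes well above background on 2 or more arrays, also added afterwards, 0 probes passed Benjamini-Hochberg adjustment (0%). At an unadjusted p under 0.05, 1.93% of them were higher with protocatechuic acid, among them all 10 of ARAD1A09218g, which share their RNA and are not replicates.

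**Figure D3:**
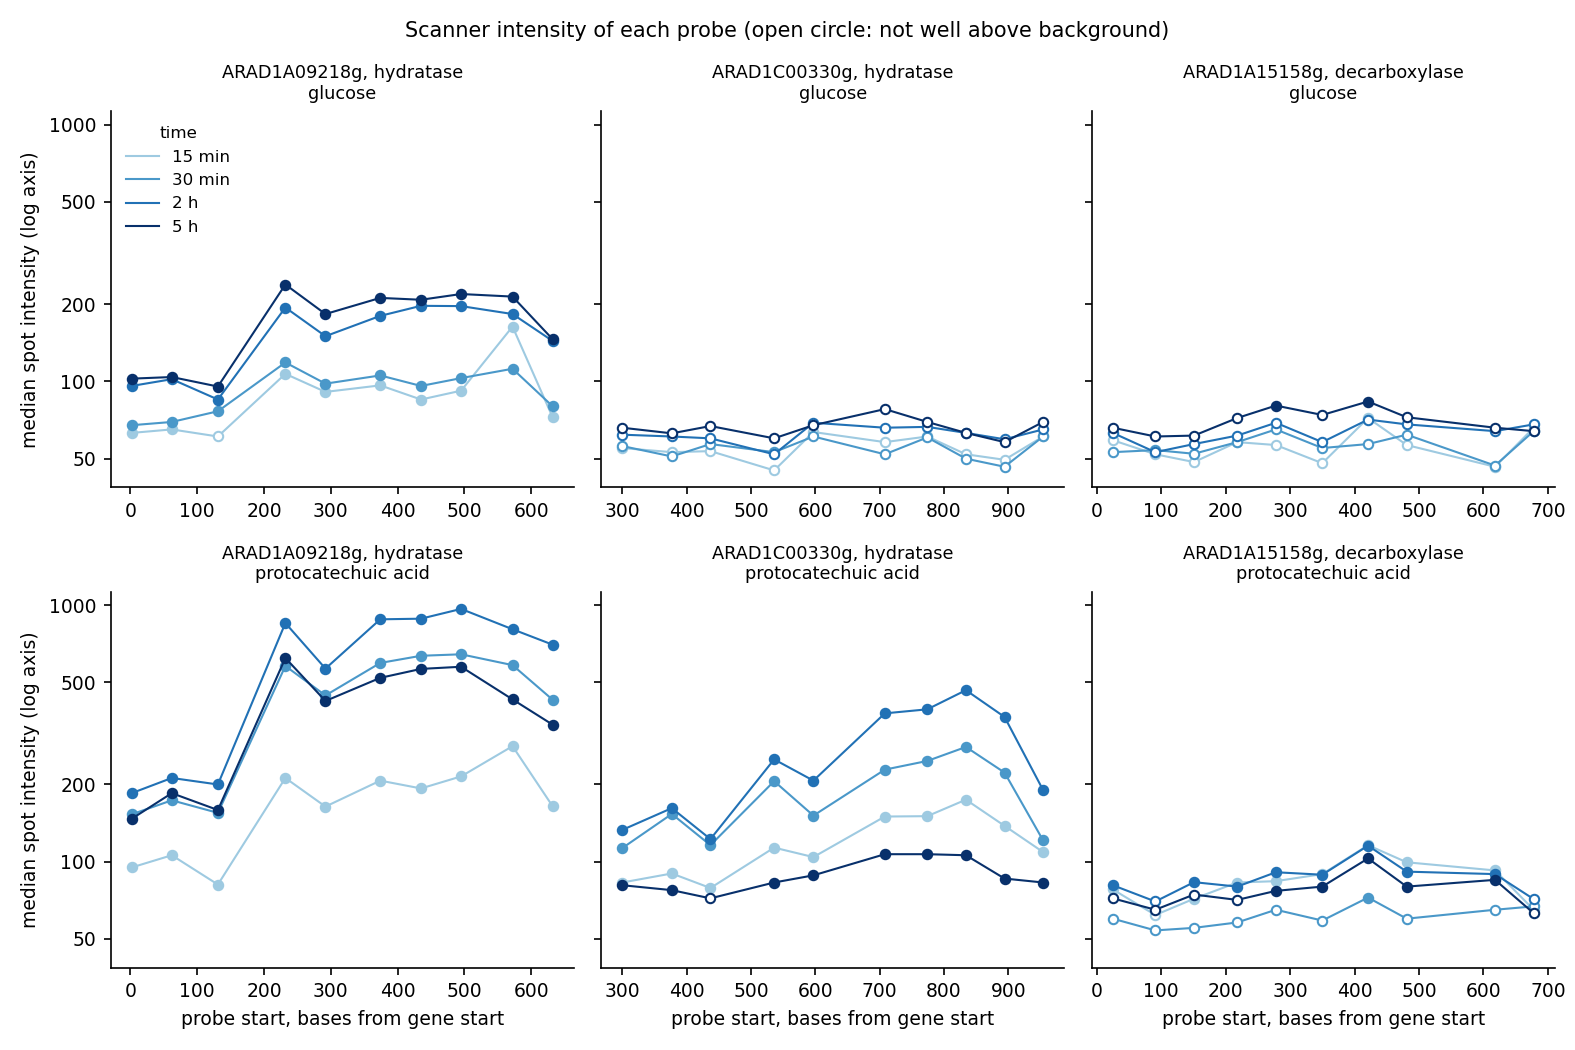
Median spot intensity as scanned (vertical axis, log scale) of each probe against the start of the probe in bases from the gene start, for the 3 genes with glucose (top) and protocatechuic acid (bottom). Lines join probes of 1 array, darker for later times, and open circles mark probes that were not well above background. With protocatechuic acid every probe of ARAD1A09218g and ARAD1C00330g is brightest at 2 h.

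The other hydratase gene, ARAD1C00330g, was seen with protocatechuic acid only. Its 10 probes start between bases 300 and 954, and none lies in the first part of the gene. With glucose their median intensity was 54.25, 54.5, 62.5 and 66.5 in time order, next to 47.5 to 57.5 for the median of the negative control spots per array. With protocatechuic acid it was 111, 179.8, 229 and 84.5. The lowest probe with protocatechuic acid stood at 72, at 5 h, and the highest with glucose at 78, also at 5 h.

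The probe of ARAD1C00330g that starts at base 834 illustrates the course: with glucose it read 52, 50, 63 and 63 at the 4 times, and with protocatechuic acid 174.5, 280, 466 and 106. In every one of the 10 probes the values at 30 min and at 2 h with protocatechuic acid exceeded those at 15 min, and the value at 5 h was below that at 15 min. The probe at base 437 was the one not well above background at 5 h. For the probe at base 377 1 of its 2 spots carried the mark there.

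On the normalized log2 scale ARAD1C00330g had 5.93 ± 0.16, 5.91 ± 0.15, 5.99 ± 0.15 and 5.91 ± 0.16 with glucose (SD over 10 probes), which is the level of background on these arrays. With protocatechuic acid it had 6.76 ± 0.35, 7.69 ± 0.53, 7.58 ± 0.67 and 6.42 ± 0.23. The lowest value with protocatechuic acid, at 5 h, was 0.43 above the highest with glucose, at 2 h, which is a value at background. The protocatechuic acid values of 30 min and 2 h, those of 15 min and 5 h, and the 4 glucose values were not separated by the residual SD of 0.35 from limma.

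From 15 to 30 min with protocatechuic acid the gene value of ARAD1C00330g was 0.93 ± 0.25 higher, with 10 of 10 probes higher, and from 2 h to 5 h it was 1.17 ± 0.49 lower, with 10 of 10 probes lower. A fall of at least 1 in this interval was found for 1.86% of the genes tested. The step from 30 min to 2 h was -0.11 after quantile normalization and 0.12 after median scaling, and 4 probes peaked at 30 min and 6 at 2 h. By 5 h ARAD1C00330g was 0.34 ± 0.17 below its value at 15 min with protocatechuic acid, whereas ARAD1A09218g was 1.36 ± 0.40 above its own. The limma test of the times gave ARAD1C00330g an unadjusted p of 0.293 and a Benjamini-Hochberg p of 0.446; whether the 2 genes differ in course was not tested.

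Because its glucose side is at background, the differences of ARAD1C00330g are approximate lower limits. The higher of the glucose value and the lowest signal among probes well above background on that array was used as the base, as in the other limits below. The excess with protocatechuic acid over this base was 1.78-fold at first, 3.30-fold at 30 min, 3.02-fold after 2 h and 1.42-fold in the last sample. At 15 min, 2 h and 5 h the glucose value was the base, so these equal the plain differences. Single unmarked probes of the gene read up to 6.21 with glucose, above the base, so the limits are not strict. Every one of the 10 probes had a difference above 0 at each of the 4 times, with a range of 0.41 to 1.39 at 15 min and of 0.16 to 0.85 at 5 h. Of all genes tested, 36.5%, 44.0%, 44.3% and 50.4% lay above 0 in time order. The probes share their RNA, and their count is a description only. At 5 h, where the limit was 0.50 on the log2 scale, the spike-in median was 0.62, and as a limit the value cannot be ranked against it.

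As a gene, ARAD1C00330g passed a log2 difference of 1 at 30 min and 2 h, by 8 of its 10 probes each. At 15 min 5 of the 10 probes did so, and at 5 h 0. Without an offset the gene value was 2.41 at 15 min and 1.79 at 5 h. The mean over the 4 times was 1.18, and 2.24-fold over the base given above. Its p adjusted over 6036 genes in limma was 0.713 by Benjamini-Hochberg and 1 by Bonferroni. This fit set signal against background, for a gene that entered it through the protocatechuic acid arrays alone, and its p supports no statement on the gene. The size of the mean depended on the processing: it was 1.89 at the offset of 16 that the authors' table carries, 2.89 without an offset, and 4.66 from the processed signal, which was also scaled in another way.

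The 4 probes of ARAD1C00330g that start between bases 708 and 894 had the largest mean differences on the main scale, 1.55 to 1.80, against 0.57 to 1.43 for the other 6. Without an offset the ranges were 3.18 to 3.74 and 1.63 to 5.08, so that they overlapped, and the order along the gene did not hold. These differences are limits for each probe as well. The choice of the 4 probes followed their values.

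**Figure D4:**
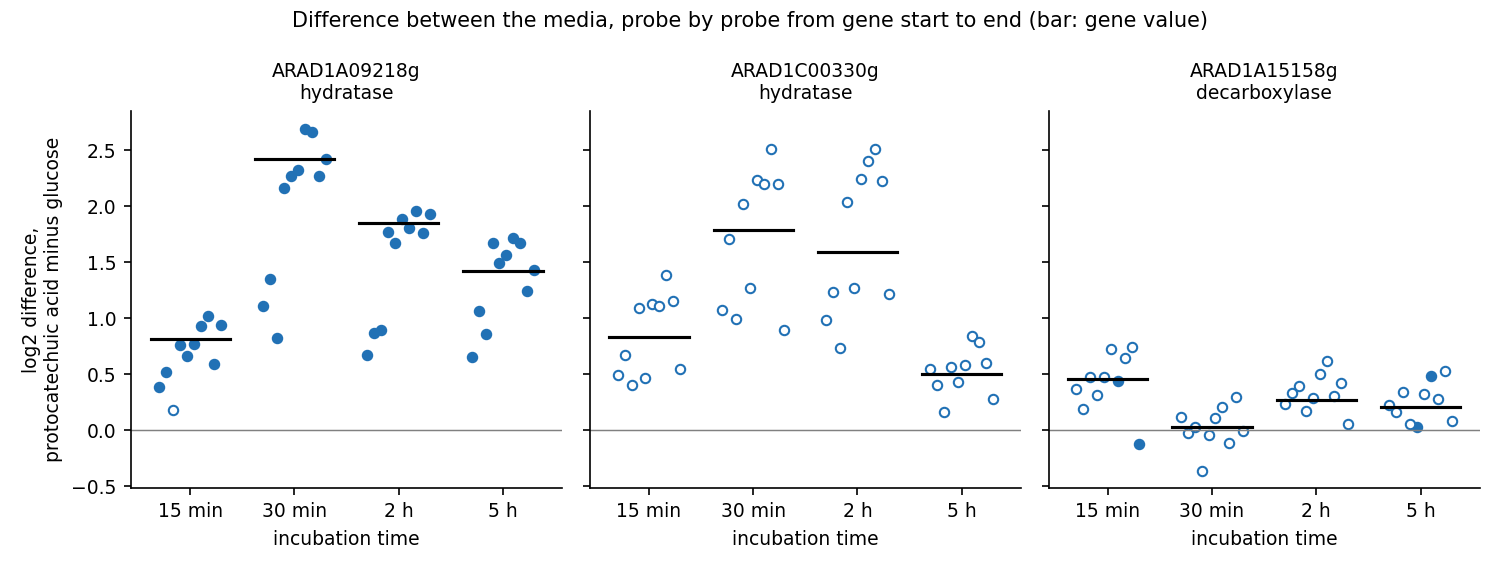
Log2 difference between the media (vertical axis, protocatechuic acid minus glucose) of every probe at each incubation time, ordered within a time from the gene start to its end. Open circles mark probes that were not well above background with glucose, and bars are the gene values. The first 3 probes of ARAD1A09218g lie lowest at each time, and every probe of ARAD1C00330g lies above 0.

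Set side by side, both hydratase genes had nearly the same difference at 15 min, 0.82 for ARAD1A09218g and 0.83 for ARAD1C00330g. Later ARAD1A09218g had the larger one, by 0.64, 0.26 and 0.92 in time order. An exact sign-flip test of the gaps at the 4 times gave p = 0.25, where the smallest p it allows is 0.125. No conclusion is drawn from it, because one side holds only limits. The mean of the gaps was 0.45 (SD 0.41 over 4 times). The direction changed to -0.74 without an offset, to -2.31 in the processed signal and to -0.33 by the brightest probe of each gene, and since ARAD1C00330g has only lower limits, the data do not tell which of the 2 genes differed more between the media.

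The decarboxylase gene ARAD1A15158g stayed close to background. Its median intensity over 10 probes was 56.5, 56, 63.5 and 69 in time order with glucose. With protocatechuic acid it was 83.5, 60, 86.1 and 75.8. The medians with protocatechuic acid exceeded those with glucose at the same time, and across times the groups overlapped.

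Few values of this gene carried the mark. With protocatechuic acid 8, 1, 8 and 5 probes of ARAD1A15158g were well above background in time order. With glucose there were 2, 0, 0 and 2. On the protocatechuic acid array of 30 min, where only the probe at base 421 was marked, 61.7% of all yeast spots were, against 70.0% at 15 min and 68.7% at 2 h. The part of this lower share in the gene's low value was not tested.

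On the normalized log2 scale ARAD1A15158g had 5.94 ± 0.21, 6.00 ± 0.18, 5.98 ± 0.12 and 6.01 ± 0.12 with glucose and 6.40 ± 0.22, 6.03 ± 0.15, 6.25 ± 0.17 and 6.22 ± 0.19 with protocatechuic acid (SD over 10 probes). The highest level was that of 15 min with protocatechuic acid, above the next by 0.14. The residual SD of 0.12 is that of 1 value, and a difference between 2 values spreads more, so this gap separates no levels. The protocatechuic acid values of 2 h and 5 h did not differ beyond that SD, and neither did the value at 30 min and the 4 glucose values. In 8 of 10 probes the highest value with protocatechuic acid was at 15 min, both after quantile normalization and after median scaling, whereas in the intensities as scanned 5 probes peaked at 15 min and 5 at 2 h.

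From 15 to 30 min with protocatechuic acid the gene value of ARAD1A15158g was 0.37 ± 0.21 lower, in 9 of 10 probes, while both hydratase genes were higher. From 30 min to 2 h it was 0.23 ± 0.15 higher, in 9 of 10 probes. With glucose the steps between adjacent times were between -0.02 and 0.06. The limma test of the times gave ARAD1A15158g an unadjusted p of 0.648 and a Benjamini-Hochberg p of 0.736.

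The differences of ARAD1A15158g between the media were 0.46, 0.03, 0.27 and 0.21 in time order. That of 2 h is an approximate lower limit, because no probe was well above background with glucose. At 30 min, when none was with glucose and 1 with protocatechuic acid, the value was -0.02 after median scaling and -0.19 in the processed signal, so no direction is given. At 15 min 9 of 10 probes were higher with protocatechuic acid, at 30 min 5 of 10, and later 10 of 10. No probe reached a difference of 1 at any time on this scale, while the gene value at 15 min was 1.61 without an offset. The value at 5 h was below the spike-in median of 0.62, but it was 0.76 without an offset and 1.25 in the processed signal.

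Over the 4 times the mean of ARAD1A15158g was 0.24 (standard error 0.08), with an unadjusted p of 0.0365 and a Benjamini-Hochberg p of 0.867 from limma. It includes values at background, and it was 0.47 at an offset of 16, 0.87 without an offset and 1.40 in the processed signal. The probe at base 421 had intensities of 72, 57, 71 and 83.5 with glucose and 116, 72.5, 115.5 and 103 with protocatechuic acid, and its mean difference was 0.44. The last probe, at base 678, stood between 63 and 71.5 on all 8 arrays and had a mean difference of 0.00, and the probe at base 91 was not well above background on any array.

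**Figure D5:**
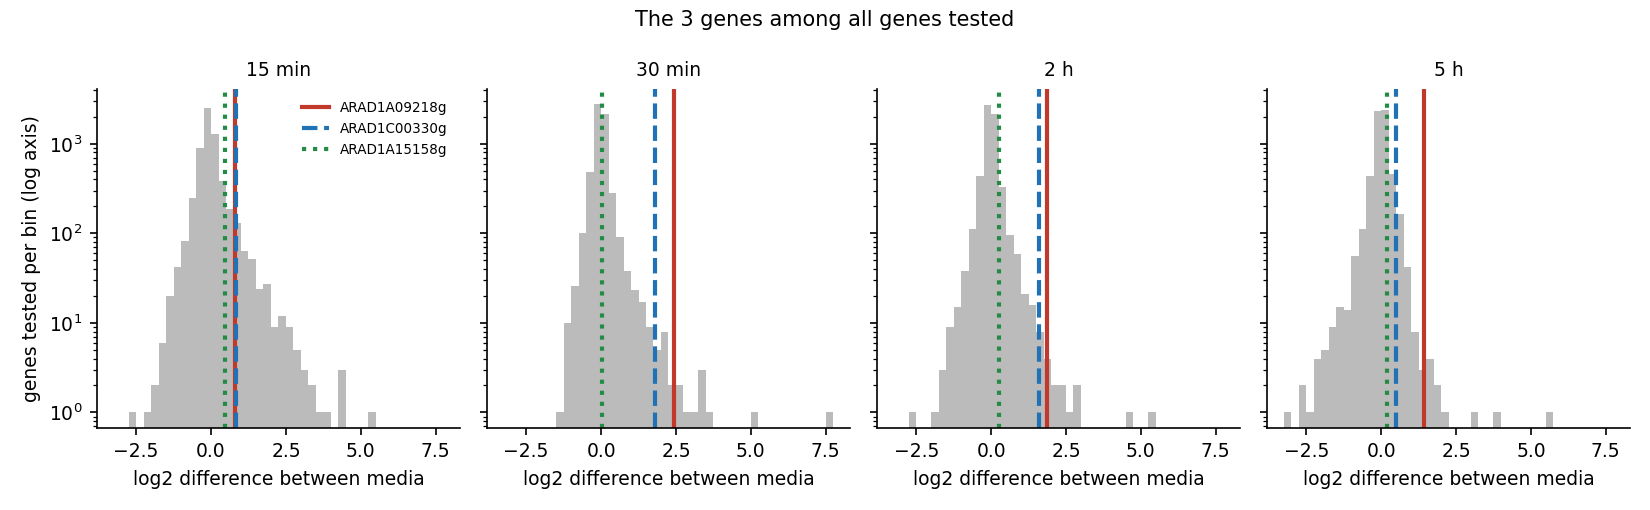
Histograms of the log2 difference between the media (horizontal axis, protocatechuic acid minus glucose) for the 6036 genes tested at each incubation time, with the number of genes per bin on a log axis. Vertical lines mark ARAD1A09218g (solid), ARAD1C00330g (dashed) and ARAD1A15158g (dotted). At 30 min the hydratase genes lie at 2.43 and 1.79 and the decarboxylase gene at 0.03.

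The other genes of the proposed pathway were read from the same arrays. Of 12 further genes in the scheme 10 have probes. In limma 0 of the 10 passed either adjustment for the difference between the media, as did 0% of all genes tested. An unadjusted p under 0.05 was found for 0 of the 10 and for 5.02% of all genes tested. With 10 genes a count of 0 lies near that share. The means of 5 of the 10 were above 0. Their median was -0.02, as was that of all genes tested, of which 43.0% had a mean above 0, and they ranged from -0.23 to 0.73. The upper end is an aldehyde dehydrogenase gene with a difference of 2.97 at 15 min and values from -0.10 to 0.09 at the later times.

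The neighbouring steps of the pathway were those of the ring-cleaving catechol dioxygenase and of the aldolase that uses the hydratase product. Under the identifier of the dioxygenase gene, ARAD1D18458g, 11 of 40 values with glucose and 17 of 40 with protocatechuic acid were well above background, and the mean difference was 0.07 (standard error 0.06). Under that of the aldolase gene, ARAD1D18348g, 40 of 40 values were so in each medium, and the mean was -0.14 (standard error 0.10). The study reports both genes as upregulated on these arrays. It also reports the dioxygenase gene as induced in RT-PCR, in another strain with protocatechuic acid as the only carbon source. The highest level there came later than the last sample of these arrays. The means given here do not show an upregulation of either gene, and the reason was not tested. For 5 of the 10 genes, which carry identifiers of chromosome D, it is unsure whether the probes measure the gene that the study names.

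In the test of the times in limma, 1 of these 10 genes passed the Benjamini-Hochberg adjustment, where 12.0% of all genes tested did. This was ARAD1C17776g, annotated as an aldehyde dehydrogenase and singled out here after its values were seen. Its log2 value was 9.75, 8.32, 6.90 and 6.59 in time order with glucose and 9.57, 7.41, 6.89 and 6.77 with protocatechuic acid (adjusted p = 0.0191). It was lower at later times in both media, and 0 of the 3 hydratase and decarboxylase genes passed this test.

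The genes whose levels over the 8 arrays were most like those of each member were found by Pearson's r among the 5990 other tested genes with at least 3 probes. The arrays share a slide and the same 2 media, and r is given as a description. For ARAD1A09218g the most alike was ARAD1D17182g, with r = 0.99, and the tenth had r = 0.92. For ARAD1C00330g it was ARAD1D17732g, also with r = 0.99, and the tenth had 0.93. Neither identifier comes with a gene name in the files.

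ARAD1D17732g had log2 differences of 1.30, 3.45, 2.81 and 0.45 in time order, and ARAD1D17182g had 0.17, 0.84, 0.49 and 0.53. The former was low again at 5 h, as ARAD1C00330g was. The 2 hydratase genes themselves had r = 0.86 with each other over the 8 arrays. The 10 genes most like ARAD1C00330g and the 10 most like ARAD1A09218g had 0 genes in common, as most sets of 10 drawn at random from 5990 genes would. Of those most like ARAD1C00330g, 6 have identifiers within a run of 10 consecutive ones on chromosome D, with mean differences between 0.82 and 2.34. The most alike genes of ARAD1A15158g had r between 0.88 and 0.93.

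The order of locus numbers places ARAD1A09218g at 404 and ARAD1A15158g at 660 among 871 identifiers of chromosome A, and ARAD1C00330g at 11 among 1991 of chromosome C, so the 3 genes are not neighbours. Of the 5 identifiers on each side of a member, 10, 8 and 10 were tested for ARAD1A09218g, ARAD1C00330g and ARAD1A15158g. Their mean differences lay between -0.29 and 0.26, between -0.05 and 0.45 and between -0.11 and 0.27. In limma 0 of them had an unadjusted p under 0.05, where 5.02% of all genes tested had. In so small a set a count of 0 lies near that share. The largest of these means, 0.45, belonged to the identifier that follows ARAD1C00330g, whose differences were 0.11, 0.95, 0.70 and 0.03 in time order.

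That identifier stood at place 11 of 5990 by likeness to ARAD1C00330g (r = 0.92). The identifier that follows ARAD1A15158g stood at place 1 by likeness to that gene (r = 0.93), with differences of 0.64, -0.03, 0.35 and 0.14 at the 4 times. For ARAD1A09218g the following identifier stood at place 177. The identifiers before the 3 members stood at places 2392, 125 and 1887 in the order ARAD1A09218g, ARAD1C00330g and ARAD1A15158g.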

How the data were processed

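The data are 8 single-dye arrays of wild-type B. raffinosifermentans LS3, grouped by the sample labels into 2 media and 4 times. The deposited scanner files hold, per the file headers, spot and local background intensities from Agilent Feature Extraction (version 11.5.1.1), before normalization between arrays. The authors' deposited table is on the log2 scale and equals normexp with an offset of 16 followed by quantile normalization of all spots. The offset was found from the values. Here median intensities were corrected by normexp (offset 50, all spots), control spots were dropped, and the rest was quantile normalized and log2 transformed (limma 3.58.1, R 4.3.3; figures with matplotlib 3.10.9). Spots were averaged per probe, and gene values are medians over probes. The number ending a probe name was read as its first base, with 60 bases per probe. Genes with a probe well above background on at least 2 arrays (6036) were tested with limma, medium plus time (3 residual and 1.73 prior degrees of freedom), with Bonferroni adjustment for media as the study names and Benjamini-Hochberg beside it. The number of arrays limits the precision.

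The 3 members, the pathway list, the most alike genes and the neighbours were chosen with earlier results of these data known. The genes named are the members, the pathway steps next to them and the most alike gene of each hydratase. On simulated data with 200 of 6036 genes changed by a constant log2 difference of 1 or 2, the limma test of the media called 54% by Bonferroni and 96% by Benjamini-Hochberg, with 10 unchanged genes by the latter. That of the times called 94.5% of genes changed at 1 time, with 8 unchanged. The differences of the members were not constant over the times, so these shares do not give the power for them. Alternatives were other offsets, the processed signal minus the 75th percentile, median scaling, the authors' table, other summaries of probes, other filters, no time block, trended robust estimation and leaving out each time. No sequences are given.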

Additional observations from a re-analysis of the deposited data

How the results depend on the processing

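In limma 0 genes passed the Bonferroni adjustment for the media, 0 passed Benjamini-Hochberg, and 303 had an unadjusted p under 0.05. Without an offset 2 genes passed Bonferroni, as did 2 by the processed signal. The count of genes that differed over time was 722 by Benjamini-Hochberg and 11 by Bonferroni, 1237 without an offset, 1232 with the processed signal and 1243 by the brightest probe; without 15 min it was 163, without 30 min 103, without 2 h 303 and without 5 h 537. ARAD1C00330g had a mean of 4.66 with the processed signal, past Bonferroni, against glucose values at background. The mean difference between the hydratase genes turned to -0.74 without an offset, to -2.31 with the processed signal and to -0.33 by the brightest probe; the cause was not tested. Leaving out single times gave means of 1.36 to 1.90 for ARAD1A09218g, 0.98 to 1.40 for ARAD1C00330g and 0.17 to 0.31 for ARAD1A15158g. The other alternatives listed left the 3 means above 0 and short of Bonferroni. The arrays carry no replicate numbers, so the time paired the media as the block of the fit; without it 0 genes passed Bonferroni. In the limma fit over probes 0 passed Benjamini-Hochberg. At an unadjusted p under 0.05, 1.93% of all probes tested were higher, among them 10 of 10 of ARAD1A09218g, which share their RNA. No such count is given for ARAD1A15158g, since most of its tested probes passed the filter through the protocatechuic acid arrays alone. Signals near background limit ARAD1C00330g with glucose and ARAD1A15158g in both media.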
